A study of Gasterosteus aculeatus with 9 samples.

Results

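Gill RNA of 6 three-spined sticklebacks (Gasterosteus aculeatus) from the saline stations A and C, pooled, was compared with gill RNA of 3 sticklebacks from the reference station B. These 9 fish are all of the 9 samples measured, and station and replicate number were taken from the sample labels. The labels give chloride concentrations of 12.912 mg/L at station B, 26.378 mg/L at station A and 32 mg/L at station C. All fish were wild animals caught in urban streams, with 3 fish per station, and the labels give neither age nor sex. The pooled comparison asks what the gills at both stations with raised chloride had in common against the reference station. Every station is a different stretch of water, so that chloride and any other difference between the stations cannot be told apart.

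Freshwater fish take up water and lose salt across the gill, and mitochondria-rich cells called ionocytes pump sodium, chloride and calcium back in from dilute water. The uptake is driven by the sodium-potassium ATPase of the basal membrane and by the vacuolar proton ATPase. Sodium-chloride cotransporters, sodium-proton exchangers, carbonic anhydrases and ammonia channels of the Rhesus family work beside them. The gill is also a large mucosal surface that holds B cells, T cells and macrophages, and the tight junctions between its surface cells set how much salt leaks out.

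The library of station C replicate 2 stood apart from the other 8 and went against its gill label. Its Spearman correlation with the other fish over all tested genes was between 0.707 and 0.734, while the other fish correlated with each other at 0.949 to 0.977. The 10 tested liver markers summed to 78187 CPM (counts scaled to the TMM-normalized sum of the counts of the tested genes) in this fish. In the other 8 they summed to between 479.7 and 677.6 CPM. Fetuin-B (FETUB), a secreted liver protein, was at 37591 CPM in this fish and at most 8.62 CPM in any other. Its markers of gill epithelium summed to 3761 CPM against 9618 to 15837 CPM in the other fish, its ionocyte markers to 932 CPM against 2493 to 11837 CPM, and its mucus cell markers to 53.5 CPM against 779.7 to 1624 CPM. Total counts per fish lay between 22049066 and 46214540, with 35003957 in this library. The pooled comparison is therefore given with and without it.

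**Figure D1:**
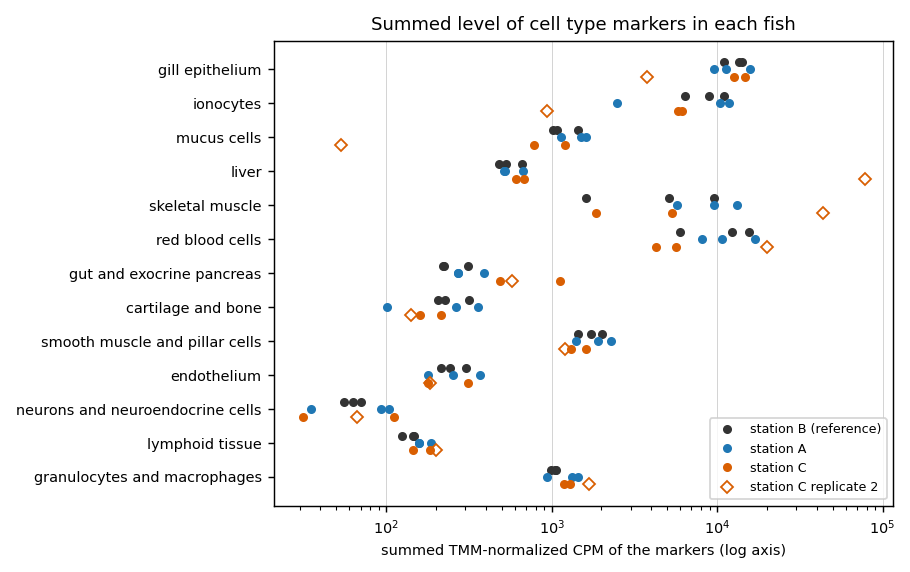
Summed TMM-normalized CPM of the markers of 13 cell types on a log axis, with 1 point per fish coloured by station and an open diamond for station C replicate 2. The diamond lies at 78187 CPM for liver and at 53.5 CPM for mucus cells, outside the range of the other 8 fish in both.

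With all fish, no gene of 9261 tested was called differentially expressed between the saline stations and the reference station (0% of the genes). Calls needed a fold change above 2 and, in edgeR's quasi-likelihood test, a p of 0.05 or less after adjustment by Benjamini and Hochberg. At an unadjusted p under 0.05 that test left 287 genes (3.1%), 160 higher (1.73%) and 127 lower (1.37%) at the saline stations. The log2 fold change was above 0 in 55.8% of the genes. The Wald test of DESeq2 called 9 genes and limma with voom called 1 on the same counts. The median standard error of a log2 fold change was 0.32.

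Without station C replicate 2, 1 gene of 9225 was called (0.0108%), and it was lower at the saline stations. That gene was CASP9, caspase-9, the protease that starts the mitochondrial route of apoptosis in mammals. The number of genes with an unadjusted p under 0.05 was 625 (6.78%), of which 331 were lower (3.59%), and the median standard error was 0.20. The log2 fold change was above 0 in 51.6% of the genes. DESeq2 called 6 genes and limma with voom called 1, again CASP9, in the same 8 fish.

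CASP9 was at 6.34, 4.28 and 6.65 CPM in the 3 fish of station B. In the fish of station A it was at 0.26, 0.37 and 0.45 CPM, and at station C at 0.30, 0.06 and 0.31 CPM. Station C replicate 2 lay below the level of 3 counts in its library, 0.17 CPM. Station A replicate 1 was near that level, 0.16 CPM in its library, so that the saline values rest on few counts. The groups did not overlap, and the lowest reference fish was far above the highest saline fish. CASP9 fell by 4.07 on the log2 scale (SE 0.31) without station C replicate 2, 16.8-fold lower, with an edgeR adjusted p of 0.00613. With all 9 fish the log2 fold change was -4.26 (SE 0.48) and the edgeR adjusted p was 0.111. The call was lost when station B replicate 1 or station B replicate 3 was left out as well, with edgeR adjusted p-values of 0.0852 and 0.0802. It held when any of the other 6 fish was left out, with edgeR adjusted p-values from 0.0139 to 0.0465.

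The level of CASP9 came from 1 transcript, whose name rests on its similarity to the mouse protein. The only other transcript of the same assembled gene was named DJC16, after a chaperone of the DnaJ family. That transcript was at 3.19, 3.47 and 2.55 CPM at station B and between 0.15 and 0.59 CPM, with a median of 0.29 CPM, in the saline fish. Both transcripts of the assembled gene were thus low in the same fish. The 4 transcripts named DJC16 in other assembled genes summed to 69.1 to 81.8 CPM at station B and to 36.6 to 77.1 CPM at the saline stations, and these ranges overlapped. Summed over the assembled gene, the log2 fold change was -3.91 with all fish, which passed edgeR's test among 24057 assembled genes with an adjusted p of 0.00239.

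The genes described next were taken in the order of their p in the pooled comparison with all fish, 12 in each direction, among those in which the 6 saline fish and the 3 reference fish did not overlap. Without overlap, 138 genes (1.49%) were higher and 166 genes (1.79%) were lower at the saline stations, 3.28% in all. Without station C replicate 2 these shares were 2.37%, 3.2% and 5.57%. EdgeR called none of the 24 with all fish, so their values are a description. DESeq2 called 6 of them, ACAD9, F234B, IGM, SNG3, Z652A and CASP9, and limma with voom called CASP9. Of these genes, 9 rest on 1 transcript.

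ACAD9, a mitochondrial acyl-CoA dehydrogenase that is needed to assemble complex I of the respiratory chain in mammals, had the smallest p among the higher genes. It was at 0.86, 1.15 and 1.41 CPM at station B, at 5.41, 6.35 and 8.43 CPM at station A and at 5.30, 8.40 and 11.3 CPM at station C. Every saline fish had more than 3 times the level of any reference fish. The log2 fold change was 2.72 (SE 0.36) with an adjusted p of 0.204, and 2.68 (SE 0.37) with an adjusted p of 0.15 without station C replicate 2. DESeq2 called it with all fish (adjusted p = 1.64e-11) and without that library (adjusted p = 2.55e-09).

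IGM, the heavy chain of immunoglobulin M and the main antibody of fish, was the most abundant of the 12 higher genes. It was at 399.2, 446.2 and 429.8 CPM at station B, at 778.2, 928 and 805.4 CPM at station A and at 676.6, 1084.7 and 831.6 CPM at station C. The station B fish lay within a narrow range and below every saline fish. The log2 fold change was 1.00 (SE 0.20) with all fish and 0.91 (SE 0.12) without station C replicate 2, with edgeR adjusted p-values of 0.929 and 0.15. With all fish DESeq2 called IGM (adjusted p = 1.42e-05), and limma with voom gave a log2 fold change of 0.92, under the fold threshold, with an adjusted p of 0.0442. Markers of lymphoid tissue, a list with genes of B and T cells, were higher in 6 of 7 cases, with median log2 fold changes of 1.02 and 0.33 with and without station C replicate 2. They summed to 125.3 to 146.3 CPM at station B and 144.5 to 200.3 CPM in the saline fish, with station C replicate 2 the highest. The 3 fish of station A lay above the reference range, and the part of these markers in the level of IGM was not tested. In a larger list of genes of lymphocytes and antigen presentation, 16 of 30 were higher with all fish. Its medians were 0.04 with and 0.19 without station C replicate 2. In bulk gill RNA, fewer cells of a type and less RNA per cell cannot be told apart, and this holds for IGM and B cells as for every gene below. IGM was summed over 8 transcripts of 1 assembled gene, and the sum of all 19 named transcripts of that assembled gene was also higher in every saline fish (793.8 to 1114.3 CPM) than at station B (453.2 to 509.3 CPM).

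Entries named after immunoglobulin chains or their receptor were gathered after the values were seen, and IGM was already among the 12 higher genes. The shares of all genes given beside them are therefore no test of this set. Of 15 tested entries, IGM included, 12 were higher at the saline stations with all fish, against 55.8% of all genes. An unadjusted p under 0.05 was found for 3 of them (3.1% of all genes), and only IGM had no overlap between the groups (3.28% of all genes). HV348, a heavy chain variable region, was at 23.8, 30.8 and 16.5 CPM at station B and at 26.3 to 68.4 CPM in the saline fish, with station A replicate 3 inside the reference range. KV13, a light chain variable region, was at a mean of 30.1 ± 20.1 CPM (SD, n = 3) at station B and of 11.3 CPM in the saline fish. The light chain entry IGL1 had means of 226.7 and 305 CPM, with overlap.

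EXOC4, a subunit of the exocyst that tethers secretory vesicles to the cell membrane, was at 70.3, 51.5 and 63.3 CPM at station B and between 77.4 and 115.9 CPM in the saline fish, with a median of 111.4 CPM. Station C replicate 2 was the lowest of the saline fish, and without it EXOC4 started at 99.4 CPM. TXB1A, a homologue of a human autophagy receptor, was at 14.9, 15.3 and 19.3 CPM at station B and between 24.3 and 36.9 CPM (median 31.0 CPM) in the saline fish. IQEC2, an activator of ARF GTPases, SNG3, a synaptogyrin of vesicle membranes, ABI1, a regulator of actin, and PTPRH, a receptor tyrosine phosphatase, had log2 fold changes of 0.45, 1.07, 0.44 and 0.53. CRAC1, a protein of cartilage matrix, and MYEF2, an RNA-binding repressor, were at 1.27 and 0.50.

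**Figure D2:**
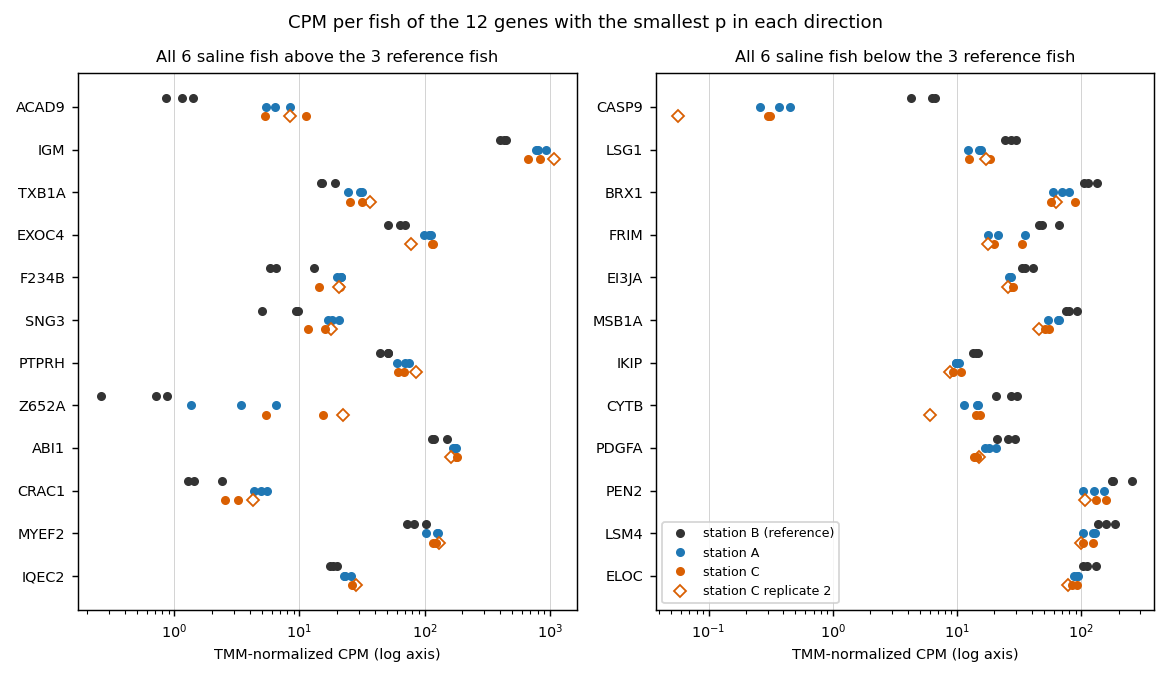
TMM-normalized CPM on a log axis of the 12 genes with the smallest p in each direction among genes without overlap, with 1 point per fish coloured by station and an open diamond for station C replicate 2. CASP9 lies between 4.28 and 6.65 CPM at station B and at most at 0.45 CPM in the saline fish, and ACAD9 between 0.86 and 1.41 CPM at station B and at 5.30 CPM or more in the saline fish.

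Among the 12 lower genes, LSG1, a GTPase that matures the large ribosomal subunit, was at 27.0, 24.5 and 29.7 CPM at station B and between 12.2 and 18.3 CPM (median 15.3 CPM) in the saline fish. BRX1, which acts in the assembly of the same subunit, was at 113.9, 133.6 and 104.7 CPM and between 57.0 and 89.8 CPM (median 65.8 CPM). EI3JA, a subunit of translation initiation factor 3, was at 35.5, 41.1 and 33.7 CPM and between 25.9 and 28.1 CPM (median 26.8 CPM). The 6 saline fish were within a narrow range for EI3JA, and station C replicate 2 did not stand apart in any of the 3 genes. Summed over its whole assembled gene, EI3JA overlapped through station C replicate 2, at 119.6 CPM against 116 to 157.3 CPM at station B. The log2 fold changes were -0.84 (SE 0.17) for LSG1, -0.76 (SE 0.17) for BRX1 and -0.45 (SE 0.11) for EI3JA.

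FRIM, the middle subunit of ferritin that stores iron in fish, was at 48.2, 45.5 and 65.7 CPM at station B. It was at 35.3, 21.3 and 17.8 CPM at station A and at 19.95, 17.7 and 33.3 CPM at station C, below every reference fish. Its log2 fold change was -1.13 (SE 0.27) with all fish and -1.06 (SE 0.26) without station C replicate 2. CYTB, the protease inhibitor cystatin-B, was at 27.1, 30.1 and 20.8 CPM at station B. It was between 6.11 and 15.2 CPM (median 14.4 CPM) in the saline fish, where station C replicate 2 was the lowest. Its whole assembled gene overlapped, at 142 to 250 CPM at station B and 49.4 to 172.5 CPM in the saline fish. MSB1A, a reductase that repairs oxidised methionine, IKIP, a partner of the NF-kappa-B kinase, PDGFA, a growth factor, PEN2, a subunit of gamma-secretase, LSM4, a splicing factor, and ELOC, elongin-C, had log2 fold changes between -0.65 and -0.39.

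The 24 genes had the same sign at both saline stations. This was fixed by their choice, since in each of them every saline fish lay on the same side of every reference fish. The shared sign therefore says nothing about agreement between the stations. Both stations were also set against the same 3 fish of station B. Between station A and station B the quasi-likelihood test called 0 genes of 9261 (218 with an unadjusted p under 0.05, DESeq2 13 calls), between station C and station B 0 genes (674, DESeq2 17) and between station C and station A 0 genes (559, DESeq2 36). The log2 fold change of CASP9 was -3.97 (SE 0.61) at station A and -4.62 (SE 0.63) at station C, and that of ACAD9 was 2.56 (SE 0.39) and 2.87 (SE 0.40). IGM was at 0.98 (SE 0.24) at station A and 1.02 (SE 0.24) at station C. The widest gap was that of Z652A, at 2.61 (SE 0.78) at station A and 4.54 (SE 0.85) at station C. The direct quasi-likelihood test of station C against station A gave adjusted p-values of 0.7496 or more for the 24 genes. That was also the smallest value over all 9261 genes, so that it says nothing particular about the 24. For Z652A the unadjusted p of this test was 0.034.

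**Figure D3:**
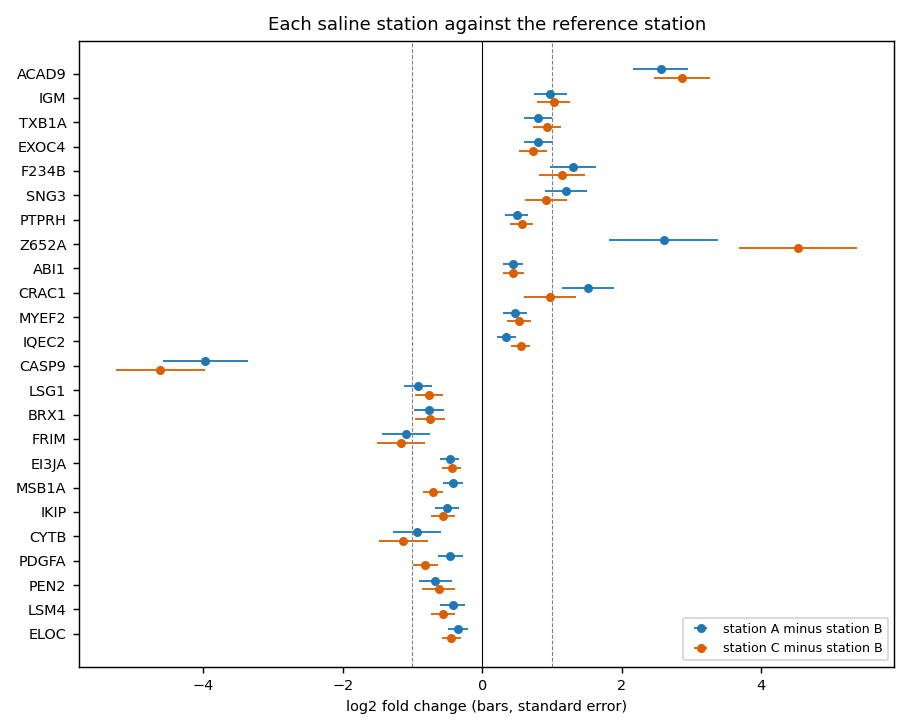
Log2 fold change against station B of the same 24 genes at station A and at station C from the fit with all fish, with the standard error as a bar and dashed lines at a fold change of 2. CASP9 lies at -3.97 and -4.62, ACAD9 at 2.56 and 2.87 and IGM at 0.98 and 1.02.

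A gene was taken to move alike when it was called in the pooled comparison, had no overlap between the groups and changed by more than 2-fold in the same direction at station A and at station C. With all fish no gene met this rule under the quasi-likelihood test, and CASP9 was the only gene without station C replicate 2. DESeq2 gave 4 such genes with all fish, of which CASP9 was lower and ACAD9, F234B and Z652A were higher. When the call was left out of the rule, 13 genes were higher (0.14% of those tested) and 7 were lower (0.0756%). Without station C replicate 2 these numbers were 15 (0.163%) and 8 (0.0867%), and 14 genes were in both sets.

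In 8 of the 13 higher genes the highest saline fish was station C replicate 2, with very unequal levels. EST5A, a carboxylesterase, was at 0.98, 0.59 and 0.63 CPM at station B, at 275.7 CPM in this fish and at 1.15 to 4.96 CPM in the other 5 saline fish. HNF4G, a nuclear receptor of gut and liver in mammals, was at 28.0 CPM in this fish, at 1.39 to 4.44 CPM in the other saline fish and at 0.40, 0.94 and 1.35 CPM at station B. ALN1 was listed at 0 in the 3 fish of station B and was at 118.2 CPM in station C replicate 2 and at 0.05 to 0.63 CPM in the other saline fish. The lowest of these, station A replicate 1, lay below the level of 3 counts in its library, 0.16 CPM. The lack of overlap in ALN1 thus rests on very few counts. More even were ZNRF1, a ubiquitin ligase, at 1.09, 1.46 and 1.62 CPM at station B and 1.86 to 5.39 CPM in the saline fish, and ADA22, a member of the ADAM family without protease activity, at 9.55, 2.54 and 9.88 CPM and 10.01 to 27.0 CPM.

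Among the 7 lower genes, TOR1B, an ATPase of the endoplasmic reticulum, was the most abundant. It was at 268, 417.6 and 385.8 CPM at station B and between 36.2 and 258.6 CPM (median 147.1 CPM) in the saline fish, where station C replicate 2 was again the lowest. AKT2B was at 10.8, 7.69 and 6.41 CPM at station B and at 0 to 3.12 CPM (median 1.95 CPM) in the saline fish. SNX8, a sorting nexin of endosomes, was at 29.7, 25.3 and 22.9 CPM at station B, at 0 CPM in station A replicate 2 and station C replicate 2 and at 3.64 to 13.1 CPM in the other 4 saline fish. Lack of overlap did not require a small p, and that of SNX8 in edgeR's test with all fish was 0.198 unadjusted. MORO, named after the antimicrobial peptide moronecidin, was left out because station C replicate 1 (466 CPM) lay above station B replicate 3 (453.9 CPM). DESeq2 called MORO without station C replicate 2, as it did GLO2, a hydrolase that clears methylglyoxal products. GLO2 was at 6.34, 8.62 and 7.28 CPM at station B and at 0.51 to 1.79 CPM in 5 saline fish, but at 21.1 CPM in station C replicate 2. The genes of these last paragraphs were taken from the rule for movement alike and from the calls of DESeq2 after their values were seen.

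For some of these genes the name covers only part of an assembled gene. In CYTB, EI3JA and MYEF2 the whole assembled gene kept the sign but overlapped between the groups with all fish. Its log2 fold changes were -0.78, -0.38 and 0.27. In Z652A and F234B the level of the whole did not follow the name. Z652A, a zinc finger protein named after the frog Xenopus, was at 0.26, 0.87 and 0.72 CPM at station B and between 1.36 and 22.3 CPM (median 5.96 CPM) in the saline fish. Its transcript held 0.83% to 3.17% of the counts of its assembled gene at station B and 3.32% to 39.4% in the saline fish. The 4 other named transcripts, all called ZN652, were at 26.7 to 32.4 CPM at station B and at 18.5 to 57.3 CPM in the saline fish, and the whole assembled gene had a log2 fold change of 0.34 with all fish and -0.01 without station C replicate 2. F234B, a membrane protein of the FAM234 family, was the sum of 2 transcripts of different assembled genes. Station A replicates 1 to 3 and station C replicate 1 held 15.2 to 17.8 CPM of the first, which was at 0 CPM in station C replicate 2 and in 2 of the 3 reference fish. The second was at 20.5 CPM in station C replicate 2 and at 3.31 to 6.53 CPM in the other 8 fish.

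**Figure D4:**
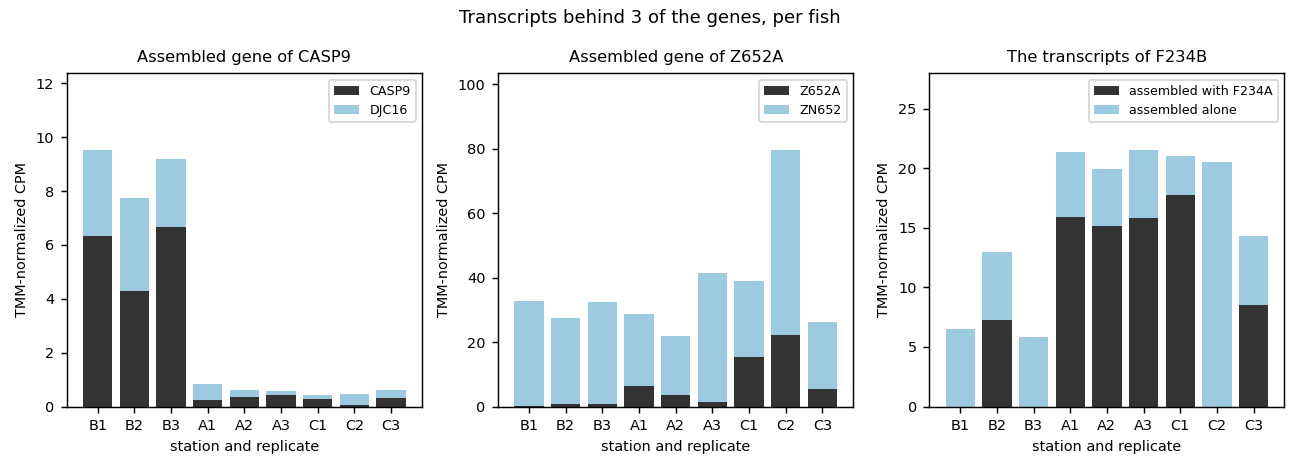
Stacked TMM-normalized CPM per fish, with stations B, A and C and replicates 1 to 3 on the horizontal axis, of the transcripts in the assembled gene of CASP9, in the assembled gene of Z652A and under the name F234B. Both transcripts of the first were low in the saline fish, Z652A was a small part of the second at station B, and F234B in station C replicate 2 came from 1 of its 2 transcripts alone.

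Of the assembled genes, 1 other was called in the pooled comparison with all fish, and it carries no protein name. Its 3 transcripts had 0 counts in every fish of station B and 107 to 404 counts in the saline fish. It was at 6.25, 9.73 and 3.22 CPM at station A and at 8.82, 7.46 and 5.80 CPM at station C, without an outlying fish. Against the limit of 3 counts per library, at most 0.0935 CPM at station B, its mean of 6.88 CPM was at least 73.6-fold higher, which covers counting error only. By edgeR's test over assembled genes the adjusted p was 0.0249 with all fish and 0.0705 without station C replicate 2, where the call was lost. It was singled out after its values were seen.

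The genes of ion transport did not stand out at the saline stations. Of 97 listed genes of ionocyte transport 57 were tested, and 30 were higher and 27 lower, with a median log2 fold change of 0.02 against 0.04 over all genes. None of them had an unadjusted p under 0.05 with all fish and none was without overlap (1.49% and 1.79% of all genes in the 2 directions). Without station C replicate 2 the median was -0.01, with 1 gene higher and 2 lower at an unadjusted p under 0.05, against 3.19% and 3.59% of all genes. AT1A1, the catalytic subunit of the sodium-potassium ATPase, was at 3600, 3078 and 2334 CPM at station B, at 6186, 4205 and 1203 CPM at station A and at 2978, 829.3 and 2849 CPM at station C. The saline fish thus lay on both sides of the reference fish, and the log2 fold change was 0.02 (SE 0.59).

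S12A3, the sodium-chloride cotransporter, was at 2536, 2711 and 2192 CPM at station B and between 13.6 and 2489 CPM (median 1235 CPM) in the saline fish. RHCG, an ammonia channel of the Rhesus family, was at 1334, 2701 and 1182 CPM and between 7.60 and 1935 CPM (median 781.9 CPM). Station C replicate 2 was the lowest in both, and without it the lowest fish was station A replicate 3 at 404.7 CPM for S12A3 and 282.7 CPM for RHCG. The ionocyte markers, which include both genes, summed to 11837, 10480 and 2493 CPM in station A replicates 1 to 3 and to 6112 and 5833 CPM in the other fish of station C, against 6418 to 11075 CPM at station B. They were low with both genes in station A replicate 3, but in station A replicate 1, where RHCG was at 789.2 CPM, they were the highest of all fish. Their part in these values was not tested. The 2 listed genes with the smallest p were B3A2, an anion exchanger, with a log2 fold change of 0.93 (SE 0.53), and CLCN7, a chloride-proton exchanger of lysosomes, with 0.17 (SE 0.11).

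Among 25 tested regulators of ion transport and hormone receptors, 14 were higher, with a median log2 fold change of 0.04. WNK1, a kinase that controls chloride cotransporters in mammals, was at 130.1, 123.2 and 109.3 CPM at station B. It was at 145.7, 159.2 and 160 CPM at station A and at 157.5, 114.8 and 156.9 CPM at station C. Only station C replicate 2 lay within the reference range. The log2 fold change was 0.30 (SE 0.14) with all fish and 0.36 (SE 0.09) without it, with an adjusted p of 0.929 and 0.708. The mineralocorticoid receptor MCR, the glucocorticoid receptor GCR and the prolactin receptor PRLR were at 0.70 (SE 0.61), 0.13 (SE 0.14) and -0.33 (SE 0.57), and without station C replicate 2 at 0.07, 0.09 and -0.10.

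All 25 genes listed as candidates in the study were tested, and 16 were higher at the saline stations. The study had picked them from these same fish, so that they are not independent evidence. Its list held genes in both directions, with station A and station C set separately against station B. The median log2 fold change was 0.17 with all fish and 0.15 without station C replicate 2, against 0.04 and 0.01 over all genes. AKP13, an anchor protein of protein kinase A, was at 202.1, 220.7 and 235.3 CPM at station B and between 254.5 and 313.5 CPM (median 270.9 CPM) in the saline fish. It was a sum over 3 assembled genes. The most abundant of them overlapped, at 111.7 to 133.8 CPM at station B and 94.3 to 149.2 CPM in the saline fish. The least abundant overlapped as well, and the other did not, with station C replicate 2 the highest at 182.5 CPM. SC24B, a coat protein of vesicles that leave the endoplasmic reticulum, was at 32.0, 32.0 and 33.4 CPM and between 38.95 and 67.3 CPM (median 40.6 CPM), with station C replicate 2 the highest. These were the 2 of 25 candidates without overlap and with an unadjusted p under 0.05, where 1.49% of all genes were higher without overlap and 1.73% higher at that p, and their log2 fold changes were 0.32 (SE 0.13) and 0.47 (SE 0.20). ABCE1, a factor that recycles ribosomes, was also without overlap when station C replicate 2 was left out, with a log2 fold change of 0.43 (SE 0.15). Of all genes 2.37% were then higher without overlap. The paper lists SEC24B (SC24B) as higher but AKAP13 (AKP13) as lower at station C, and ABCE1 as lower at station A. The sums of AKP13 (17 transcripts) and ABCE1 (8 transcripts) lay higher, also at the station the paper names. Their log2 fold changes there were 0.38 (SE 0.15) at station C and 0.26 (SE 0.25) at station A. The deposited counts are per transcript, and single transcripts can fall while such a sum rises. Whether this was so for AKP13 or ABCE1 was not tested. The fold changes in the paper were much larger than those of the sums per entry name. Its qPCR of a subset of upregulated genes, AQP1 and ANO10 among them, gave fold changes in the positive direction. The remaining candidates overlapped with all fish, among them ANO10, a member of the anoctamin family, with 0.02 (SE 0.45), AQP1, a water channel, with 0.74 (SE 0.70), and TRPM7, a magnesium channel, with -0.19 (SE 0.32). AQP1 was at 150.3 CPM in station C replicate 2 and at most at 37.8 CPM in any other fish, and without this library its log2 fold change was -0.08.

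Genes of the immediate early response, many of them transcription factors, follow stimulation of a cell within minutes. In the pooled comparison they lay mostly lower. Of 30 tested, 25 were lower, with a median log2 fold change of -0.33, and 4 of them had an unadjusted p under 0.05. Over all genes 1.37% were lower at an unadjusted p under 0.05. Without station C replicate 2, 20 of 30 were lower, with a median of -0.26. The medians at the stations taken alone were -0.13 at station A and -0.46 at station C without that library, and both rest on the same reference fish. At station A 12 of 30 were higher, and at station C without that library 4 of 30.

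KLF2, a transcription factor of endothelial cells and T cells, was at 426.5, 334.5 and 280.4 CPM at station B, at 227.9, 158.5 and 212.1 CPM at station A and at 194.1, 63.7 and 253.1 CPM at station C. ID1, an inhibitor of helix-loop-helix factors, was at 284.3, 271.8 and 278.6 CPM at station B and between 183.3 and 254.4 CPM (median 223.4 CPM) in the saline fish. Both were lower in every saline fish, with log2 fold changes of -0.91 (SE 0.37) and -0.33 (SE 0.13) and an edgeR adjusted p of 0.929. They were the 2 of 30 genes that were lower without overlap, where 1.79% of all genes were. EGR1, a zinc finger factor of the same response, was at 133.2, 117.8 and 41.3 CPM at station B and between 13.4 and 85.7 CPM (median 29.1 CPM) in the saline fish, so that the groups overlapped through station B replicate 3.

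The counts or medians of several gene lists differed with and without station C replicate 2. Of 81 tested genes of the cytosolic ribosome 34 were higher with all fish and 10 without station C replicate 2, and the median log2 fold change went from -0.03 to -0.20. For 78 genes of the respiratory chain and ATP synthase the corresponding numbers were 36 and 13, with medians of -0.03 and -0.24. For ribosome and respiratory chain the medians were -0.12 and -0.18 at station A, with 15 and 20 genes higher. At station C without that library they were -0.38 and -0.39, with 5 and 10 genes higher, and both stations rest on the same reference fish. In the pooled comparison without that library, 5 of 81 and 7 of 78 were lower at an unadjusted p under 0.05 in edgeR's test, against 3.59% of all genes. Of 64 genes of cell division 49 and 53 were higher, with medians of 0.21 and 0.25, but at station A the median was -0.04 with 27 genes higher and at station C without that library 0.51 with 58 higher. The medians for complement and inflammation were 0.46 and 0.17, and for xenobiotic response 0.50 and 0.02. None of these lists held a called gene in either comparison.

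With all fish, 13 of 24 genes of osmolyte transport and osmosensing, 20 of 42 of antioxidant and metal defence and 16 of 31 chaperones were higher, with median log2 fold changes of 0.01, -0.01 and 0.00. Without station C replicate 2 only 5 of the 31 chaperones were higher and their median was -0.15, while the other medians were 0.04 and -0.02. Of the genes of the immune response, 17 of 25 interferon genes and 16 of 30 genes of lymphocytes and antigen presentation were higher (medians 0.05 and 0.04), and 21 and 20 were higher without that library (0.13 and 0.19). Hypoxia genes were higher in 11 of 18 and clock genes in 11 of 17 cases, with medians of 0.05 and 0.15 that went to -0.05 and 0.00. The medians of glycolysis (22 genes) and of sterol and fatty acid synthesis (34 genes) went from 0.20 to -0.07 and from 0.17 to -0.11, and that of collagens and matrix (33 genes) from 0.23 to 0.19.

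Genes of tight junctions and cell adhesion lay lower in most cases, with 8 of 29 higher with all fish and 11 without station C replicate 2. Their median log2 fold change was -0.17 in both comparisons. CLD3, a claudin that seals epithelia in mammals, was at 332.4, 411 and 319.7 CPM at station B and between 29.98 and 295.3 CPM (median 237.6 CPM) in the saline fish. EPCAM, an adhesion protein of epithelial cells, was at 25.4, 32.4 and 33.9 CPM and between 0.34 and 24.5 CPM (median 19.6 CPM). Neither overlapped between the groups, 2 of 29 genes where 1.79% of all genes were lower without overlap. Without station C replicate 2 their lowest saline values were 148.4 and 14.4 CPM. In that comparison 2 of 29 were higher and 2 lower without overlap, where the shares of all genes were 2.37% and 3.2%. The higher ones were ZO1, at most 204.8 CPM at station B and at least 205.5 CPM in the other saline fish, and AFAD, at 161 and 161.7 CPM. The summed markers of gill epithelium overlapped, at 11065 to 14210 CPM at station B and 9618 to 15837 CPM in the other saline fish. Taken singly, 11 of these 14 markers, EPCAM among them, were lower with all fish, with a median log2 fold change of -0.18. Without station C replicate 2, 9 of 14 were lower, with a median of -0.10. Then 3 were lower at an unadjusted p under 0.05 in edgeR's test, against 3.59% of all genes. Their part in the levels of CLD3 and EPCAM was not tested. Among the chaperones only XBP1, a transcription factor of the unfolded protein response, was without overlap with all fish. That is 1 of 31 genes, where 1.79% of all genes were lower without overlap. XBP1 was at 2.84, 3.09 and 3.65 CPM at station B and 1.20 to 2.51 CPM in the saline fish.

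**Figure D5:**
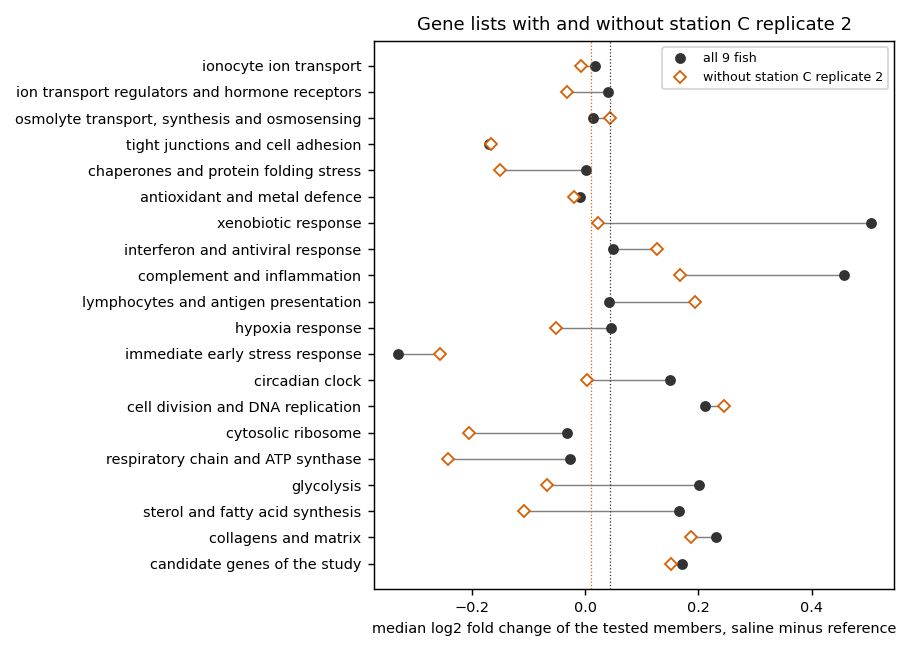
Median log2 fold change, saline minus reference, of the tested members of 20 gene lists with all 9 fish (filled circles) and without station C replicate 2 (open diamonds), with dotted lines at the medians of all genes, 0.04 and 0.01. Ribosome genes moved from -0.03 to -0.20 and xenobiotic response from 0.50 to 0.02, while the immediate early response stayed at -0.33 and -0.26.

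Markers of muscle varied among all fish. They summed to 1613, 5128 and 9631 CPM at station B, to 5690, 13155 and 9546 CPM at station A and to 1864, 43599 and 5329 CPM at station C. DESeq2 called PRVB2, a parvalbumin, and the myosins MYH16 and MYO3 higher at the saline stations with all fish, and these followed 2 or 3 fish. PRVB2 was at 1089 CPM in station A replicate 2, at 821.3 CPM in station C replicate 2 and at most at 9.75 CPM in every other fish, the reference fish included. These genes were not called without station C replicate 2. Markers of neurons were higher in 9 of 12 cases in both comparisons, with medians of 0.97 with all fish and without that library, and their sums overlapped at 55.4 to 70.1 CPM at station B and 31.2 to 112.2 CPM in the saline fish. Markers of granulocytes and macrophages were higher in 7 of 9 cases, with medians of 0.44 and 0.35. Their part in any of the values above was not tested.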

How the data were processed

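RNA was extracted from the gills of 9 sticklebacks and sequenced on Illumina libraries. Per the paper's methods, the authors trimmed the reads with Trimmomatic, assembled them de novo over all fish with Trinity, used Salmon to estimate how abundant each transcript was and named transcripts through Trinotate. No genome build was used. The deposited table holds estimated counts (expected counts) of 98643 transcripts in 9 columns, and 48.8% of the values were whole within 0.0005.

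Counts were summed over the first Swiss-Prot entry name, that of the closest protein in other species, for 43772 transcripts (44.4%) and 10495 names, and rounded. Transcripts without a name held 8.93% to 15.6% of the counts and were left out, except in sums per assembled gene. A sum can join near-identical copies of a gene, and an assembled gene can join neighbouring genes.

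Genes were filtered with filterByExpr, normalized by TMM and tested with edgeR 4.0.16 (quasi-likelihood, robust) in R 4.3.3. The pooled comparison had 1 factor of 2 levels and the station comparisons 1 factor of 3 levels. The fits were checked on simulated data, whose outcome is not given here and supports none of the results. Alternatives were DESeq2 1.42.0, limma 3.58.1 with voom, other filters and scalings, sums per assembled gene, a replicate block and leaving out each fish. The replicates are labelled as biological replicates. Spread between them also holds differences in dissection and library.

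Named genes were those moving alike at both stations, filled up to 12 per direction from genes without overlap by p, the study's candidates, and the 2 members of each list with the smallest p, of which the text gives a selection. The results of 1 named gene are not reported here. The members and lists were chosen with earlier results of these data known. Total counts were 22049066 to 46214540, where 3 counts correspond to 0.0665 to 0.171 CPM.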

Additional observations from a re-analysis of the deposited data

Results flagged for a closer look

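In 57 checks of single values or list sums over the 6 saline fish, 15 had a lowest or highest fish far from the other 5. Chance flags about 1 in 20 independent groups. These checks share the same 6 fish and are not independent, so that 15 is not a number of separate anomalies. Station C replicate 2 was the outlying fish in 13 of the 15. It was below the others in the summed CPM of tight junctions (2430). It was above them for osmolyte transport (19300), chaperones (7050), antioxidant and metal defence (70300), xenobiotic response (7890), complement and inflammation (90500), the circadian clock (1120), the cytosolic ribosome (87400), the respiratory chain (367000), glycolysis (23200), sterol and fatty acid synthesis (6360), liver markers (78200) and skeletal muscle markers (43600). Station C replicate 3 was the lowest for F234B, at 14.4 CPM against 20 to 21.5 CPM in the others, and the highest for markers of gut and exocrine pancreas, at 1130 CPM against 271 to 577 CPM.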

How the results depend on the processing

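The pooled comparison called 0 genes with all fish, 9 with DESeq2, 1 with limma and voom and 2 with sums per assembled gene, and 0 to 1 when each fish was left out, with the call at station C replicate 2. Without that library DESeq2 called 6 genes and a replicate block 0, and leaving out a further fish gave 0 to 1, with 0 without station B replicate 1 or 3. Between stations A and B, DESeq2 called 13 genes and leaving out each fish gave 0 to 1, with the call without station B replicate 2. Between stations C and B, DESeq2 called 17 and sums per assembled gene 1. Between stations C and A, DESeq2 called 36, limma with voom 3, and leaving out each fish gave 0 to 3, with 3 without station B replicate 2. Genes moving alike numbered 4 with DESeq2, 1 with limma and voom, 2 with sums per assembled gene and 0 to 1 without single fish. The replicate numbers did not pair the fish, with correlations of -0.13 to 0.26 for same-numbered fish, and the block left 0 calls with all fish.

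Log2 fold changes that turned their sign did so with limma and voom for ANO9 (0.20), IP3KB (0.16), NED4L (0.087), AQP1 (-0.19) and CLD1 (-0.25), with the 3-level factor for ANO10 (-0.050), and in the most abundant assembled gene for F234B (-0.34) and S6A15 (-0.09). Leaving out single fish gave ranges of -0.17 to 0.37 for ANO10, -0.35 to 0.50 for ANO9, -0.084 to 0.91 for AQP1, -0.25 to 5.33 for CLD1, -0.14 to 0.15 for IP3KB, -0.071 to 0.059 for NED4L, -0.0078 to 0.042 for S6A15, -0.088 to 0.0065 for SO5A1 and -0.078 to 0.030 for VP26C. The causes were not tested. Depth limits statements on genes near 3 counts per fish, which is 0.0665 to 0.171 CPM.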
